A study of Mus musculus with 6 samples.

Results

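Claudins are the membrane proteins that form the strands of tight junctions, and the set described here was 10 members of the family: Cldn1, Cldn2, Cldn3, Cldn4, Cldn6, Cldn7, Cldn8, Cldn9, Cldn10 and Cldn12. They were chosen by gene symbol, 10 of the 21456 symbols with values, and the level of each was the sum of its rows in the deposited table. All 10 had values, and 9 had a mean of at least 1 RPKM (read number adjusted for the size of the transcript and of the library) over the 6 libraries and were tested. Cldn2, at a mean of 0.743 RPKM, was below that minimum.

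The libraries were made from messenger RNA of the ureteric epithelium of embryonic kidneys of CFW mice at E16.5. The 3 tip libraries came from cells with the marker label Wnt11RFP+;Hoxb7GFP+, that is, a red reporter named for Wnt11, which is transcribed at the branching tips, and a green reporter named for Hoxb7, which is transcribed throughout the ureteric epithelium. The 3 stalk libraries came from cells labelled Wnt11RFP-;Hoxb7GFP+, so both groups shared the green reporter, the strain and the stage. Each group is defined by its reporters alone, and the stalk group takes in every green cell without red signal, whatever its place along the duct. The labels do not say whether the 3 libraries of a group were different animals, litters or pools, so a p-value here speaks of the scatter among these 6 libraries, which could be technical scatter.

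In an epithelium, claudins join neighbouring cells through their extracellular loops and set how much, and which, ion passes between the cells. Some members mainly seal, others form pores selective for cations or anions, and the mix of members in a cell gives each nephron segment its permeability. In the mature kidney, Cldn3, Cldn4, Cldn7 and Cldn8 are known from the distal nephron and collecting duct. Of these parts, it is the collecting duct that the ureteric stalk gives rise to. Cldn2 is known from the proximal tubule and thin limb, and Cldn10 from the proximal tubule and the thick ascending limb.

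The claudins divided between the groups. Cldn3, Cldn6, Cldn9, Cldn10 and Cldn12 were higher in tip, Cldn4 and Cldn8 were higher in stalk, and Cldn1 and Cldn7 did not pass the test. The test was limma on log2(RPKM + 1), two-sided, with Benjamini-Hochberg adjustment over all 12532 genes tested and a threshold of 0.05, and fold changes are tip minus stalk. The 5 members called higher in tip stand beside 26.1% of all genes tested called in that direction, and the 2 called higher in stalk beside 22.5%. Of the 5, Cldn10 was under 1 RPKM in every stalk library and reached the minimum mean only through tip. Its direction was thus partly set by the minimum. The median log2 fold change was 0.65 over the 9 claudins and 0.05 over all genes. Over the 5 other claudins tested, described further on, it was -1.63. The median of the 9 thus describes the listed members and not the whole family. All 3 tip libraries lay above all 3 stalk libraries for 5 of the 9 members, Cldn10 again among them, against 31.3% of all genes. All 3 stalk libraries lay above all 3 tip libraries for 3 of the 9, Cldn1, Cldn4 and Cldn8, against 26.5%. Cldn1 reached the minimum mean only through its stalk libraries. In bulk samples a change in the share of cells that use a gene and a change in the RNA per cell cannot be told apart.

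**Figure D1:**
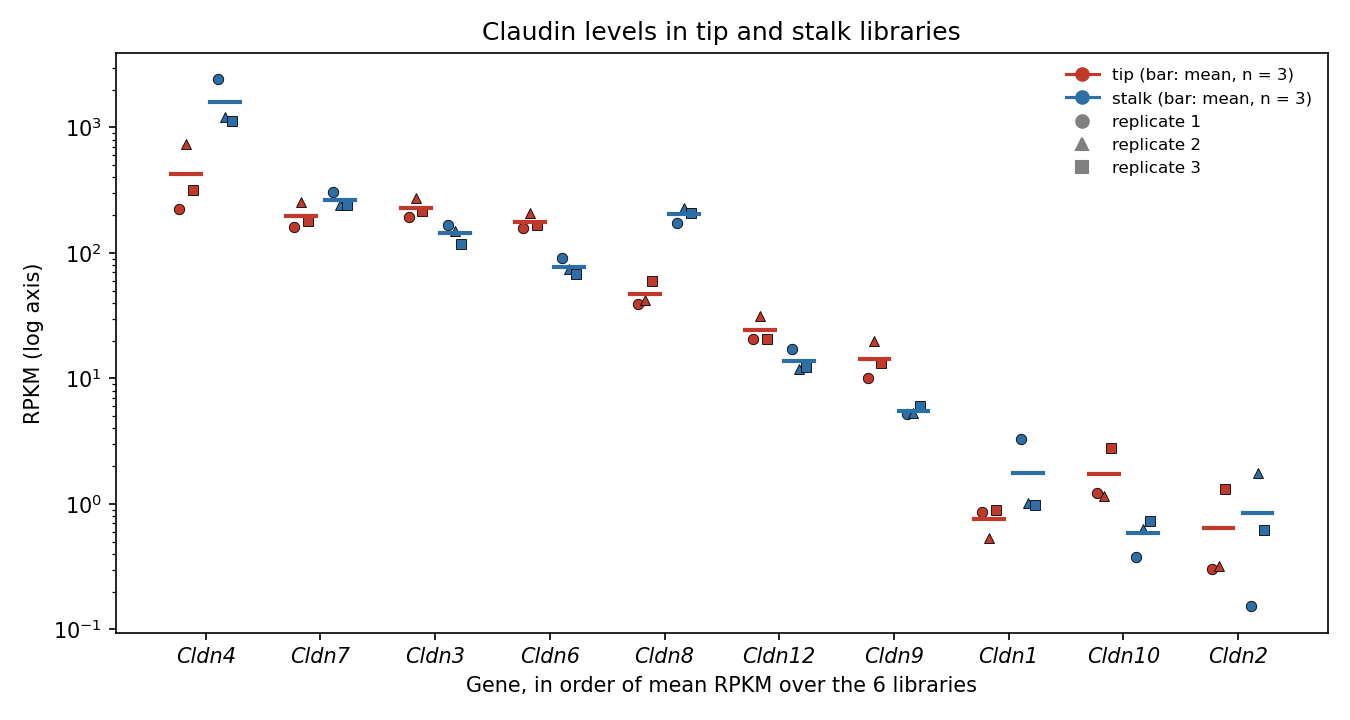
RPKM on a log axis for the 10 claudins in each tip library and each stalk library, with bars at the group means (n = 3 each). Cldn4 and Cldn8 are lower in every tip library than in every stalk library, and Cldn3, Cldn6, Cldn9, Cldn10 and Cldn12 are higher.

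**Figure D2:**
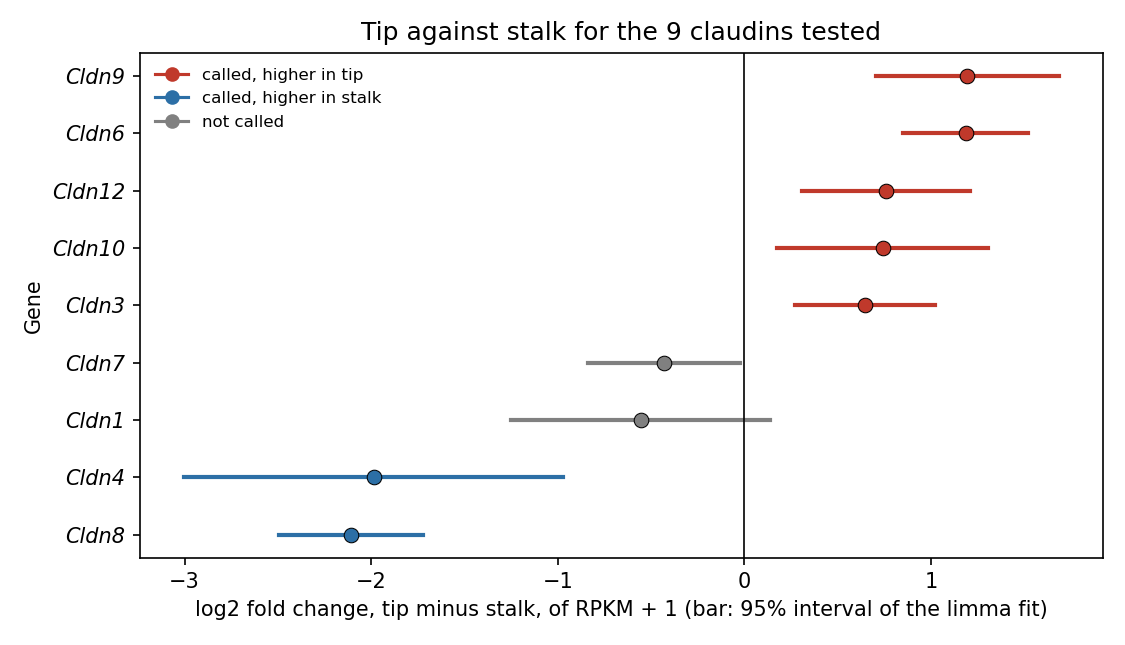
Log2 fold change of RPKM + 1, tip minus stalk, with the 95% interval of the limma fit, for the 9 claudins tested. The 5 members called higher in tip lie between 0.65 and 1.20, and the 2 called higher in stalk lie at -1.99 and -2.11.

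Cldn3 and Cldn4, both receptors of an enterotoxin of Clostridium perfringens, are neighbours on chromosome 5 and went in opposite directions. In the GENCODE M21 annotation of build mm10, Cldn4 lies at chr5:134945119-134946934 on the minus strand and Cldn3 at chr5:134986214-134987472 on the plus strand. They are 39.3 kb apart with no protein-coding gene between them, and each is annotated with 1 transcript of 1 exon. The 250 bases before the start given in RefSeq follow because this pair moved apart, together with those of Cldn6, the most abundant of the embryonic claudins described further on. They are from RefSeq on GRCm38.p6, written 5′ to 3′ along the strand of the gene, with capitals marking the motif matches described after them. The RefSeq start of Cldn6 lies inside the GENCODE gene, so the last 116 bases of its window, which hold the matches at -93 and -8, are within the gene as GENCODE draws it.
Cldn4, chr5:134946935-134947184, minus strand: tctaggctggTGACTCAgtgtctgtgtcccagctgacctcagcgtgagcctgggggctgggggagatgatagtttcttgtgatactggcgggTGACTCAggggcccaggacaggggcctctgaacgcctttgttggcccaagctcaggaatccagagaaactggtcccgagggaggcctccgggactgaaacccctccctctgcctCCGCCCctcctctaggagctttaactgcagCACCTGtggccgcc
Cldn3, chr5:134985964-134986213, plus strand: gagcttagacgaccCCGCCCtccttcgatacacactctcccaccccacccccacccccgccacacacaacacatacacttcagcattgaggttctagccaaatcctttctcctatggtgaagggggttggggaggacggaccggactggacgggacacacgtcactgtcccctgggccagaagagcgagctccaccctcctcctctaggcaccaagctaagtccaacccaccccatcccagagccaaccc
Cldn6, chr17:23679115-23679364, plus strand: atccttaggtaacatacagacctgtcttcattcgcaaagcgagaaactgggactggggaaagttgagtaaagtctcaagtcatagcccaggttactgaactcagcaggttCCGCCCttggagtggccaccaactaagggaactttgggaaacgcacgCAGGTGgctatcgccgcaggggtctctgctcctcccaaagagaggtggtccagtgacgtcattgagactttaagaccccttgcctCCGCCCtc

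The motifs searched were TGANTCA (AP-1), CACCTG (the E-box bound by zinc finger repressors such as Snai1), GGGCGG (the GC box), TATAAA (the TATA box) and AACNGGTT (grainyhead), each on both strands, and no matches to different motifs overlapped in these 3 windows. The Cldn4 window held 2 matches to TGANTCA, both TGACTCA, with first bases at -240 and -158 from the start, 1 CACCTG at -14 and 1 CCGCCC, the GC box on the other strand, at -44. The Cldn3 window held 1 CCGCCC, at -236. The Cldn6 window held CCGCCC at -140 and -8 and CAGGTG, the E-box on the other strand, at -93. Over 32851 mouse promoters of the same length in the RefSeq table, 6.75% held TGANTCA, 17.2% CACCTG, 32.7% GGGCGG, 12.4% TATAAA and 1.79% AACNGGTT. RefSeq promoters were matched for 8 of the 10 members, 12 windows in all, and AACNGGTT was in none of them. The base composition of the printed windows was 62.0% G and C for Cldn4, 60.8% for Cldn3 and 53.6% for Cldn6, against a median of 52.4% over all promoters. These matches describe the letters and say nothing of binding.

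Cldn4, which in collecting duct cells forms a paracellular anion pathway together with Cldn8, was the most abundant claudin in each of the 6 libraries. It had 223, 742 and 315 RPKM in tip libraries 1, 2 and 3, against 2419, 1203 and 1125 RPKM in stalk libraries 1, 2 and 3. Every tip library was below every stalk library, and tip library 2 and stalk library 1 each stood well above the others of their group. The means were 427 ± 277 RPKM in tip and 1582 ± 726 RPKM in stalk (SD, n = 3 each), 3.71 times as high in stalk, and the log2 fold change was -1.99 (SE 0.44, limma adjusted p = 0.00651). Leaving out 1 library at a time moved it between -2.48, without tip library 2, and -1.62. By mean RPKM among all 21456 symbols, Cldn4 ranked 91st in tip and 9th in stalk.

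Cldn8, the other collecting duct member, which recruits Cldn4 to the junction in mouse collecting duct cells, was the other member called higher in stalk. It had 39.3, 42.0 and 59.2 RPKM in the tip libraries, against 173, 228 and 210 RPKM in the stalk libraries. The groups were far apart: even the highest tip library was below the lowest stalk library by more than the range of either group. The means were 46.9 ± 10.8 RPKM in tip and 203 ± 28.1 RPKM in stalk (SD, n = 3 each), 4.34 times as high in stalk, and the log2 fold change came to -2.11 (SE 0.17, limma adjusted p = 3.54e-05). Its order against Cldn4 depended on the libraries used, Cldn4 having the larger change without tip library 2 (-2.48 against -2.04 for Cldn8), stalk library 2 (-2.14 against -2.02) or stalk library 3 (-2.19 against -2.08). The gene lies at chr16:88560828-88563183 on the minus strand and has 1 annotated exon.

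Cldn7, which binds the adhesion protein Epcam and whose loss in mice causes renal salt wasting, did not pass the test. It had 162, 253 and 179 RPKM in the tip libraries, against 309, 241 and 241 RPKM in the stalk libraries. The groups overlapped through tip library 2, which was above 2 of the 3 stalk libraries. The log2 fold change was -0.43 (SE 0.18, 95% interval -0.84 to -0.02, limma adjusted p = 0.0771). Without tip library 2 the difference passed the test, at a log2 fold change of -0.62 (limma adjusted p = 0.009). It also passed without both tip library 2 and stalk library 1, at -0.50 (limma adjusted p = 0.00548).

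Cldn3, a member that mainly seals, went the other way from its neighbour Cldn4. It had 193, 273 and 218 RPKM in the tip libraries, against 166, 151 and 118 RPKM in the stalk libraries. The groups did not overlap, although the lowest tip library and the highest stalk library were close. The means were 228 ± 40.7 RPKM in tip and 145 ± 24.6 RPKM in stalk (SD, n = 3 each), and the log2 fold change came to 0.65 (SE 0.16, limma adjusted p = 0.0115). The ratio of Cldn4 to Cldn3 was 1.16, 2.73 and 1.45 in the tip libraries, against 14.5, 7.99 and 9.52 in the stalk libraries, so no tip library came near a stalk library in the balance of this pair. The last bases of Cldn3 overlap an antisense gene, Wbscr25, which was at 0.0189 to 0.604 RPKM over the 6 libraries. Whether the counting used strand is not given in the sources used here.

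Cldn6 and Cldn9, claudins known in mouse from embryonic epithelia and, in kidney, from the neonatal tubule, were both higher in tip. They too are neighbours, at chr17:23679249-23682446 on the plus strand and chr17:23682584-23684026 on the minus strand, with 137 bases between their ends. Their coding sequences were 73.2% identical, the closest pair among the 45 pairs of members, where the median was 53.0% and the lowest 47.2%. No pair shared a stretch of 50 identical coding bases, but how the authors' software split shared reads is not given, and values of such close relatives carry that uncertainty.

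Cldn6 had 157, 210 and 167 RPKM in the tip libraries, against 90.5, 74.8 and 67.5 RPKM in the stalk libraries. Every tip library was above every stalk library. The means were 178 ± 28.1 RPKM in tip and 77.6 ± 11.8 RPKM in stalk (SD, n = 3 each), and the log2 fold change came to 1.19 (SE 0.15, limma adjusted p = 0.000294).

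Cldn9 had 10.1, 19.8 and 13.3 RPKM in the tip libraries, against 5.22, 5.29 and 6.05 RPKM in the stalk libraries. The groups did not overlap, and the stalk libraries were much closer to each other than the tip libraries were. The means were 14.4 ± 4.91 RPKM in tip and 5.52 ± 0.460 RPKM in stalk (SD, n = 3 each), and the log2 fold change came to 1.20 (SE 0.21, limma adjusted p = 0.00212). The ratio of Cldn6 to Cldn9 was 15.5, 10.6 and 12.5 in the tip libraries, against 17.3, 14.1 and 11.2 in the stalk libraries, so the pair kept overlapping ratios while both were higher in tip.

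Cldn12, which lacks the PDZ-binding end that ties most claudins to the ZO scaffold proteins, was also higher in tip. It had 20.6, 31.2 and 20.6 RPKM in the tip libraries, against 17.2, 11.8 and 12.3 RPKM in the stalk libraries. The groups did not overlap, with tip library 2 standing above the rest. The log2 fold change was 0.76 (SE 0.20, limma adjusted p = 0.0127). The adjusted p was 0.0507 when all 21456 symbols were tested with no minimum.

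The pore-forming members of other nephron segments were near the bottom of the range. Cldn10, whose isoforms form cation or anion pores, had 1.22, 1.17 and 2.78 RPKM in the tip libraries, against 0.378, 0.635 and 0.735 RPKM in the stalk libraries. No stalk library reached a tip library, and tip library 3 was the highest. The log2 fold change was 0.74 (SE 0.25, limma adjusted p = 0.0367). This was the least stable call of the set, lost in 5 of the 11 alternative settings that tested the gene. Without stalk library 1, 2 or 3 the limma adjusted p was 0.0883, 0.0643 or 0.0612, and with no minimum it was 0.0824. Without tip library 3 its mean fell under the minimum and it was not tested.

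Cldn10 had 4 rows of values, which the files do not pair with transcripts. The first row had 1.22, 0.586 and 0.946 RPKM in the tip libraries, against 0.240, 0.188 and 0.265 RPKM in the stalk libraries. The second row had 0.0002, 0.580 and 1.84 RPKM in the tip libraries, against 0.138, 0.0037 and 0.469 RPKM in the stalk libraries. The third row was listed at 0 in every library but stalk library 2, where it had 0.443 of the 0.635 RPKM of the gene, and the fourth at 0 in all 6. Of the 4 rows, the first kept the groups apart, and most of the excess of tip library 3 was in the second.

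Cldn2, the cation and water pore of the proximal tubule, had 0.305, 0.321 and 1.31 RPKM in the tip libraries, against 0.153, 1.75 and 0.622 RPKM in the stalk libraries. The groups overlapped, with 1 high library in each. Markers of nephron tubules were compared with these by their highest library. Tip library 3 was the highest tip library for 4 of 8 proximal tubule markers and for 6 of 7 loop of Henle and distal tubule markers, and stalk library 2 was the highest stalk library for 8 and for 4 of them. Among all genes tested, 36.2% were highest in tip library 3 within tip and 39.2% in stalk library 2 within stalk. Cldn2 was highest in tip library 3 and stalk library 2, and Cldn10 in tip library 3 and stalk library 3. Slc12a1, picked after its values were seen, the salt transporter of the thick ascending limb, had 0.104, 1.17 and 9.14 RPKM in the tip libraries, against 3.63, 4.74 and 4.49 RPKM in the stalk libraries. Slc34a1, the phosphate transporter of the proximal tubule, had 1.45, 1.60 and 1.86 RPKM in the tip libraries, against 0.249, 4.99 and 2.32 RPKM in the stalk libraries. Of 8 proximal tubule markers 1 was tested and it was not called. Of 7 loop of Henle and distal tubule markers 3 were tested, with 1 called toward each side. Among all genes tested, 26.1% were called toward tip and 22.5% toward stalk. So few tested markers cannot show a departure from these shares. The summed level of the proximal tubule markers ranged from 3.63 to 6.79 RPKM in tip libraries and from 2.27 to 11.4 RPKM in stalk libraries, and that of the loop of Henle and distal tubule markers from 7.54 to 25.4 RPKM in tip and from 11.6 to 29.8 RPKM in stalk. Their part in the values of Cldn2 and Cldn10 was not tested.

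Cldn1, a sealing claudin of the skin barrier and other epithelia, had 0.859, 0.530 and 0.894 RPKM in the tip libraries, against 3.27, 1.02 and 0.984 RPKM in the stalk libraries. The stalk libraries were all above the tip libraries, but 2 of them only narrowly. The difference did not pass the test, its log2 fold change being -0.56 (SE 0.30, 95% interval -1.25 to 0.14, limma adjusted p = 0.164), and without stalk library 1 the gene fell under the minimum.

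The order of the claudins by level differed between the groups. In tip the order of the means was Cldn4, Cldn3, Cldn7, Cldn6, Cldn8, Cldn12, Cldn9, Cldn10, Cldn1 and Cldn2. Neighbours among the first 4 overlapped in their libraries, as did Cldn1 and Cldn2 at the end, while the members between stood apart from each other. In stalk the order was Cldn4, Cldn7, Cldn8, Cldn3, Cldn6, Cldn12 and Cldn9, each apart from the next, followed by Cldn1, Cldn2 and Cldn10, which overlapped. RPKM is scaled to length, which allows a rough comparison of levels between genes. The levels are sums over differing numbers of rows, 1 for Cldn4 and 7 for Cldn12, and how shared reads were split is not given.

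Added together, the 10 claudins had 807, 1573 and 977 RPKM in the tip libraries, against 3184, 1918 and 1782 RPKM in the stalk libraries. Without Cldn4 the sum was 584, 831 and 662 RPKM in the tip libraries, against 765, 715 and 657 RPKM in the stalk libraries, and the groups overlapped. Cldn4 made up 27.6, 47.2 and 32.3% of the sum in the tip libraries, against 76.0, 62.7 and 63.1% in the stalk libraries. Cldn3 and Cldn6 together made up 43.4, 30.7 and 39.4% in the tip libraries, against 8.07, 11.8 and 10.4% in the stalk libraries. Cldn4 was thus more than any other member in each library, but it exceeded all the others together in the stalk libraries only. The ratio of Cldn8 to Cldn6 was 0.250, 0.200 and 0.354 in the tip libraries, against 1.91, 3.05 and 3.10 in the stalk libraries, and it had the groups on opposite sides of equality.

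**Figure D3:**
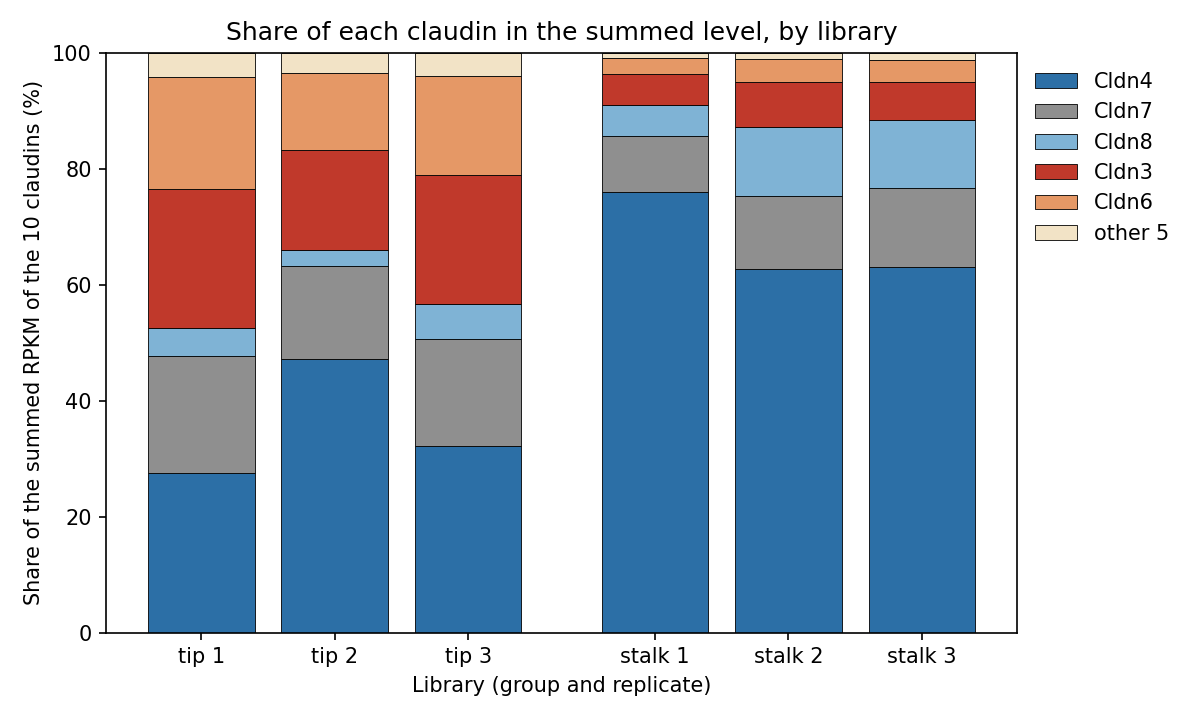
Share of each claudin in the summed RPKM of the 10 claudins, as stacked bars that start at 0, for the 3 tip libraries and the 3 stalk libraries. Cldn4 takes 27.6 to 47.2% of the sum in the tip libraries and 62.7 to 76.0% in the stalk libraries.

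Many of the claudins had their highest value within a group in the same library. Of the 9 tested, 6 were highest in tip library 2 among the tip libraries, as were 28.9% of all genes tested, and 6 were highest in stalk library 1 among the stalk libraries, as were 23.7% of all genes. Both held for 5 of the 9, Cldn3, Cldn4, Cldn6, Cldn7 and Cldn12, against 13.5% of all genes. It did not hold for the whole set, since Cldn8, Cldn9 and Cldn10 had their lowest stalk value in stalk library 1. Tip library 2 also had the lowest level of Wnt11, the gene of the sorting reporter, at 423 RPKM, where tip libraries 1 and 3 had 930 and 726 RPKM. The part of either library in the claudin values was not tested, but all 9 members kept their direction in every such fit that tested them, and the calls of Cldn3, Cldn4, Cldn6, Cldn8, Cldn9 and Cldn12 were kept when any single library was left out.

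Genes with the profile nearest to a claudin were found by the root mean square difference of log2(RPKM + 1), centred for each gene, over the 6 libraries. For Cldn8 they were Rnasek at 0.112, Prdx5 at 0.112 and Gprc5c at 0.118. Gprc5c, an orphan receptor, had 13.5, 17.4 and 18.8 RPKM in the tip libraries, against 66.2, 83.3 and 82.2 RPKM in the stalk libraries. For Cldn9 they were Crym at 0.103, Wnt6 at 0.118 and Serp2 at 0.155. Wnt6, a secreted signal of the ureteric epithelium, had 2.77, 4.94 and 2.86 RPKM in the tip libraries, against 0.945, 1.10 and 1.10 RPKM in the stalk libraries. These are likenesses of profile over 6 libraries of 2 groups and carry no test.

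Of 14 other claudins listed, 12 had values and 5 were tested, of which Cldn19 was higher in tip and Cldn5, Cldn11 and Cldn23 were higher in stalk, beside 26.1% and 22.5% of all genes. Cldn19, which works with Cldn16 in magnesium uptake by the thick ascending limb, had 8.39, 13.3 and 10.5 RPKM in the tip libraries, against 5.05, 5.62 and 8.23 RPKM in the stalk libraries. The tip and stalk libraries came close but did not overlap, and the log2 fold change was 0.69 (limma adjusted p = 0.0243). Cldn5, the claudin of endothelium, had 1.87, 2.07 and 1.84 RPKM in the tip libraries, against 12.0, 7.29 and 11.6 RPKM in the stalk libraries, a log2 fold change of -1.92 (limma adjusted p = 9.42e-05). Of 10 endothelial markers tested, 9 were higher in stalk and 1 was higher in tip. Pecam1, Cdh5, Kdr, Tie1, Tek, Emcn and Esam had tip means under 1 RPKM and reached the minimum only through stalk. Their direction was thus partly set by the minimum. The sum over 11 endothelial markers was 34.5 to 37.3 RPKM in tip libraries and 73.1 to 116 RPKM in stalk libraries. The part of endothelial cells in the level of Cldn5 was not tested.

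Cldn11, known from myelin and the Sertoli cell barrier, had 0.372, 0.903 and 0.385 RPKM in the tip libraries, against 5.97, 3.64 and 6.30 RPKM in the stalk libraries, a log2 fold change of -2.01 (limma adjusted p = 0.000191). Cldn23 had 2.20, 3.95 and 1.48 RPKM in the tip libraries, against 11.2, 8.88 and 8.76 RPKM in the stalk libraries, a log2 fold change of -1.63 (limma adjusted p = 0.000842). Both kept all tip libraries below all stalk libraries, but Cldn11 reached the minimum mean only through its stalk libraries. The symbol Cldn25, an older name in RefSeq of both Cldnd1 and the pseudogene Cldn25-ps, had 33.9 to 38.9 RPKM in tip and 38.2 to 57.6 RPKM in stalk and did not pass the test (log2 fold change -0.33, limma adjusted p = 0.101).

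The lists for the ureteric tip, principal cells, intercalated cells and urothelium followed the sorting labels. All 8 ureteric tip markers were higher in tip, beside 26.1% of all genes tested. They include Wnt11, the gene of the sorting reporter, so its direction was set by the sort. Lgr5, also among them, reached the minimum mean only through its tip libraries. Higher in stalk were all 9 principal cell markers, all 6 intercalated cell markers tested and 6 of 7 urothelial markers tested, beside 22.5% of all genes. Apart from Rhcg, the intercalated cell markers tested had tip means under 1 RPKM and reached the minimum only through stalk. So did the urothelial markers called and the principal cell markers Scnn1a and Fxyd4. The direction of these markers was thus largely set by the minimum. Not every list followed the sorting labels. Of 6 nephron progenitor and early nephron markers tested, 4 were higher in tip and 1 in stalk. Of 3 immune markers tested, 1 was called toward each side, and the 3 stromal markers tested were not called. Aqp2, the water channel of principal cells, had 2.58, 5.53 and 4.06 RPKM in the tip libraries, against 377, 719 and 628 RPKM in the stalk libraries. The summed level of the intercalated markers was 2.26 to 4.47 RPKM in tip libraries and 275 to 460 RPKM in stalk libraries, and that of the urothelial markers 2.95 to 3.63 RPKM in tip libraries and 214 to 492 RPKM in stalk libraries. Transcripts of several cell types were thus present in the stalk libraries. The part of each of these cell types in the levels of Cldn4 and Cldn8 was not tested.

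Genes of other junction proteins were counted from lists, beside 26.1% of all genes tested called higher in tip and 22.5% called higher in stalk. Of the other membrane proteins of the tight junction, 8 were tested, 1 was higher in tip and 2 were higher in stalk, with a median log2 fold change of -0.31. With 8 genes, these counts are not read as a departure from the shares of all genes. Jam3, an adhesion molecule of the immunoglobulin family, was higher in tip by 1.71 on the log2 scale (limma adjusted p = 0.000418), at 6.87, 5.73 and 5.82 RPKM in tip against 1.79, 0.546 and 1.37 RPKM in stalk. Its relative F11r, or JAM-A, was lower in tip, at 55.5, 83.3 and 58.8 RPKM against 122, 108 and 105 RPKM in stalk (log2 fold change -0.77, limma adjusted p = 0.00383). Ildr1, which seals the corners where 3 cells meet, was lower in tip as well (log2 fold change -1.09, limma adjusted p = 0.000422). Lsr, another corner protein and the second most abundant of the list, had a log2 fold change of -0.08 (limma adjusted p = 0.549). Occludin, Ocln, named here after its values were seen, had -0.71 and missed the threshold (limma adjusted p = 0.0783).

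Of the scaffold and polarity proteins under the strands, 21 were tested, 5 were higher in tip and 6 were higher in stalk, shares near those 26.1% and 22.5% of all genes, and the median log2 fold change was 0.02. Mpdz, a multi-PDZ scaffold that binds claudin tails, was at 16.7, 13.6 and 13.6 RPKM in tip against 4.40, 4.79 and 4.97 RPKM in stalk (log2 fold change 1.44, limma adjusted p = 5.5e-05). Amot and Amotl2, of the angiomotin family that couples junctions to Hippo signalling, were higher in tip by 1.01 and 0.84 on the log2 scale, with limma adjusted p of 0.000697 and 0.00298. Cgn, cingulin, which links the junction to the cytoskeleton, was at 13.5, 15.0 and 16.9 RPKM in tip against 34.5, 37.0 and 40.3 RPKM in stalk (log2 fold change -1.25, limma adjusted p = 6.76e-05). The scaffold Magi3 was lower in tip by a like amount (log2 fold change -1.25, limma adjusted p = 6.93e-05). Paralogs of the polarity protein Par6 split, with Pard6g higher in tip (log2 fold change 1.18, limma adjusted p = 0.00055) and Pard6b higher in stalk (log2 fold change -1.40, limma adjusted p = 0.0157). Pard6b had 27.8, 75.5 and 32.5 RPKM in tip against 168, 88.2 and 89.3 RPKM in stalk, high in tip library 2 and stalk library 1 as Cldn4 was.

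The adhesion partners of claudins and the proteases and inhibitors that govern them were all called, 1 of 6 toward tip and 5 toward stalk, against 26.1% and 22.5% of all genes, with a median log2 fold change of -0.96. Toward stalk, 4 instead of 5 were called with no trend, with a replicate block, and whenever any library was left out. Epcam, which binds and stabilises Cldn7, was higher in tip, at 391, 374 and 397 RPKM against 293, 304 and 292 RPKM in stalk (log2 fold change 0.38, limma adjusted p = 0.00585). Prss8, the membrane protease prostasin, and Spint1 and Spint2, inhibitors of matriptase, were higher in stalk, with log2 fold changes of -1.28, -1.29 and -0.65 and limma adjusted p of 0.000438, 6.5e-05 and 0.000597.

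Among 8 tested regulators of claudins, 1 was higher in tip and 2 were higher in stalk, against 26.1% and 22.5% of all genes, with a median log2 fold change of -0.21. Wnk4, a kinase of the distal nephron that phosphorylates claudins in cultured kidney cells, had 4.92, 5.40 and 6.45 RPKM in tip against 19.1, 20.8 and 24.1 RPKM in stalk (log2 fold change -1.76, limma adjusted p = 3e-05). Klhl3, the ubiquitin ligase adaptor that targets Wnk4 and also binds Cldn8, was higher in stalk too (log2 fold change -0.52, limma adjusted p = 0.0313). Ovol2, an epithelial transcription factor, was higher in tip, with 2.77, 5.71 and 2.85 RPKM against 1.11, 2.48 and 0.726 RPKM in stalk (log2 fold change 0.98, limma adjusted p = 0.031). Its call was lost without tip library 2, stalk library 1 or stalk library 3. Toward stalk, 1 regulator instead of 2 was called with no minimum, with a replicate block, and without tip library 1 or stalk library 3. Grhl2, the grainyhead factor that in mouse controls Cldn4 transcription in the ureteric and collecting duct epithelium, had 22.8, 22.6 and 23.6 RPKM in tip against 21.8, 23.7 and 25.4 RPKM in stalk. The groups overlapped and the log2 fold change was -0.03 (limma adjusted p = 0.793).

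**Figure D4:**
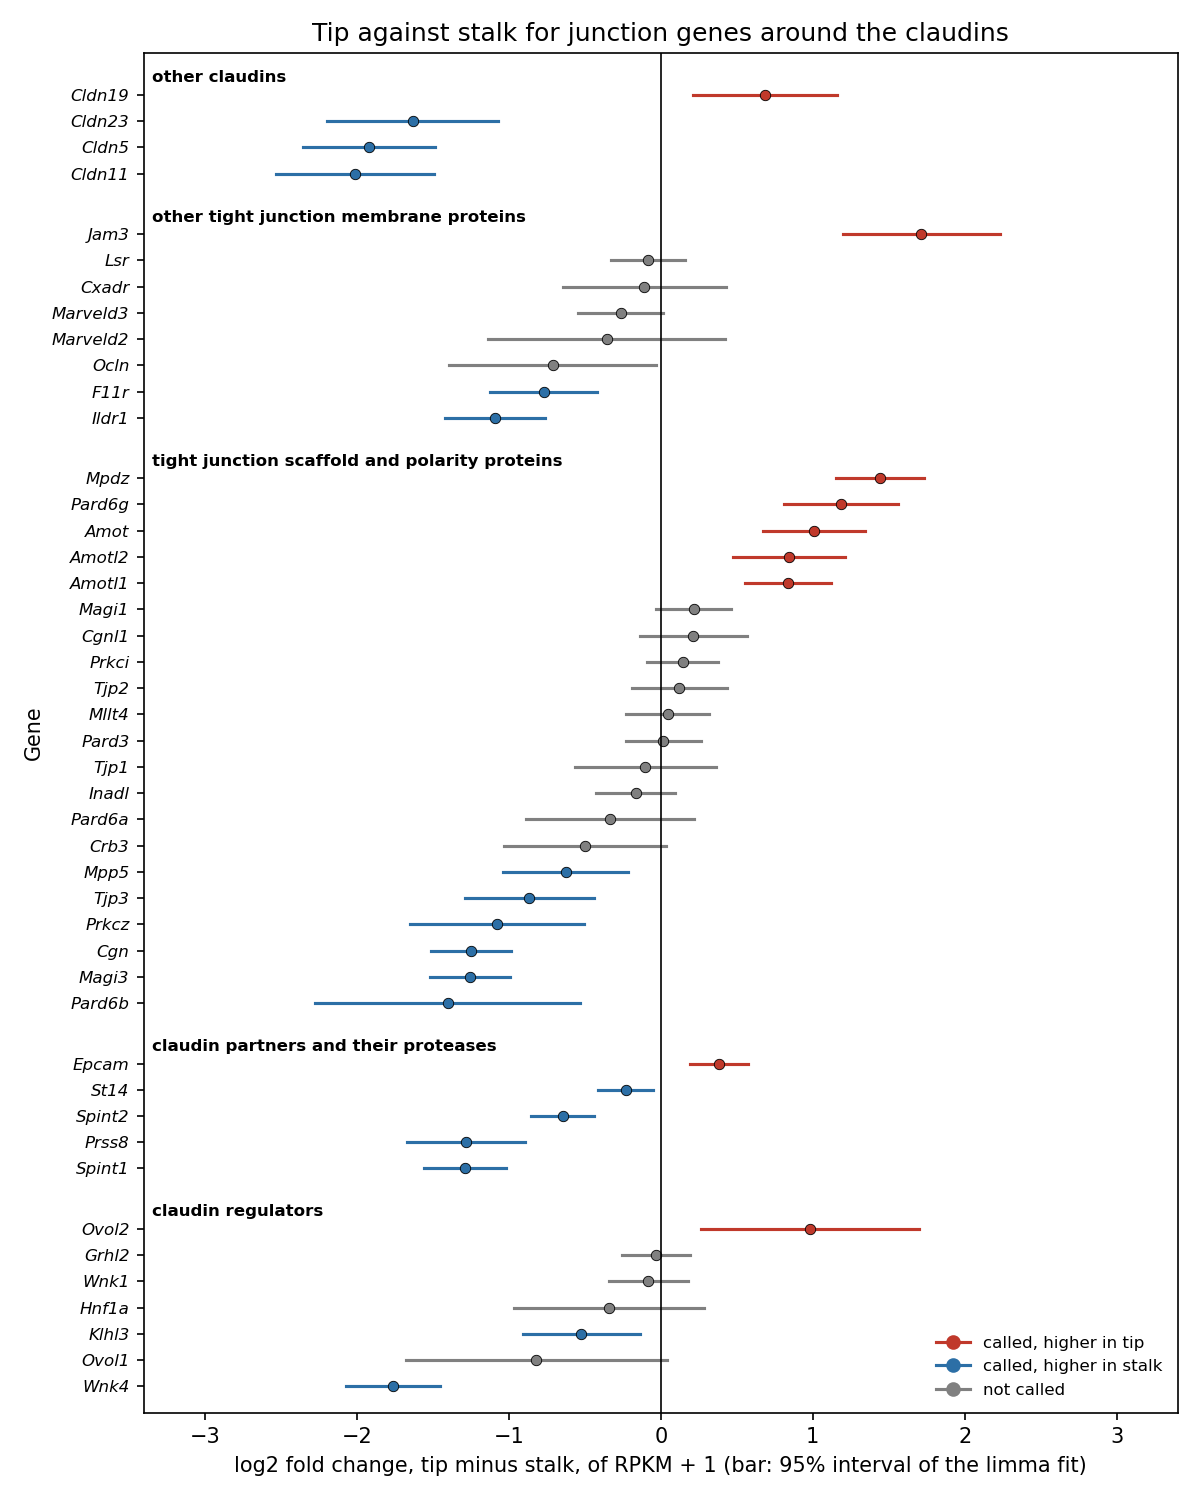
Log2 fold change of RPKM + 1, tip minus stalk, with the 95% interval of the limma fit, for the tested members of 5 lists of genes around the 10 claudins, with Cldn25 and 2 other genes left out. Among the claudin partners and proteases plotted, Epcam is the 1 gene higher in tip, while the scaffold list has 5 higher in tip and 6 higher in stalk.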

How the data were processed

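Values were RPKM computed by the authors and deposited in 1 table, with reads processed with bcl2fastq 2.17, TopHat2, Partek and build mm10, per the submitters' processing notes. Settings, annotation and the use of strand are not given in the sources used here. RNA was prepared with a Qiagen RNeasy micro kit and a Kapa stranded kit, per the labels' protocols. Of 93615 rows, 24545 held question marks in place of values and were left out. The other 69070 were summed by symbol. Low values were not multiples of any common step, so depth was unknown and no counting interval could be given. RPKM sums per library ranged from 345123 to 366035.

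Groups came from the labels. Testing used limma 3.58.1 (R 4.3.3) with its trend option and no block, on log2(RPKM + 1), a scale that understates changes of low genes, for symbols averaging 1 RPKM or more. A symbol averaging under 1 RPKM in a group could enter through the other group alone, which partly set its direction. The procedure was tested on simulated data. Alternatives were a pseudocount of 0.1, no minimum or 5 RPKM, median-ratio scaling, the highest row of each symbol, no trend, a replicate block, each library left out, and both tip library 2 and stalk library 1 left out. With 3 against 3, an exact permutation test of 1 gene cannot give a p below 0.1, so none was run.

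The 10 claudins and the gene lists were chosen with earlier results of these data known. Besides the 10, the genes named were every other claudin averaging 1 RPKM or more, from each junction list up to 3 called members per direction with the largest change and the 2 highest means, and the 3 genes nearest in profile to the claudin with the largest change to each side (Cldn9 and Cldn8 on the log2(RPKM + 1) scale). From lists of cell type markers, counts, sums and the member of highest mean could be named. Of the junction lists, 2 genes are counted but not reported here. Gene coordinates are from GENCODE M21 and promoters from RefSeq.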

Additional observations from a re-analysis of the deposited data

How the results depend on the processing

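Over 14 alternative settings, 120 values of the 9 tested claudins could be computed. None changed direction, 112 stayed on the same side of the threshold, 6 lost their call (Cldn10 5 times and Cldn12 once) and 2 gained one (Cldn7). With no minimum, 3 claudins were called higher in tip instead of 5, since Cldn10 and Cldn12 lost their calls. Leaving out 1 library at a time gave 4 to 5 claudins higher in tip and 2 to 3 higher in stalk. Over all genes it gave 2511 to 3077 higher in tip and 2256 to 2861 higher in stalk, against 3274 and 2815 with all 6 libraries. Median-ratio scaling gave 3009 and 3143.

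Equal replicate numbers did not mark libraries that deviated together: their correlations of deviations from the group means were -0.303, -0.335 and 0.0933. Across numbers, tip library 2 with stalk library 1 had 0.559, tip library 3 with stalk library 2 had 0.397, and tip library 1 with stalk library 3 had 0.334. The remaining pairs had 0.0549, -0.331 and -0.436. The labels give no such pairing, and a block for it was not tested. Deviations within a group cancel for each gene, so these correlations are tied to each other. A positive one brings negative ones with it, and the mix of signs is partly built in. With the number as a replicate block, 5 claudins were higher in tip and 2 in stalk, and 2716 and 2380 of all genes. The depth of the libraries was unknown, which limits the reading of Cldn1, Cldn2 and Cldn10 at their low levels.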

Other observations

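Among the claudins below the tested range, Cldn16, the partner of Cldn19 in the thick ascending limb, had 0.224, 0.310 and 1.52 RPKM in the tip libraries, against 0.654, 0.167 and 1.39 RPKM in the stalk libraries, and was highest in tip library 3, as Cldn10 was. Umod, the uromodulin of the thick ascending limb, had 0, 0.0851 and 2.16 RPKM in the tip libraries, against 0.273, 0.0475 and 0.123 RPKM in the stalk libraries. These genes were chosen after their values were seen and were not tested. Cldn14 was listed at 0 in all 3 stalk libraries and at up to 0.151 RPKM in tip libraries, a level at which no difference can be read.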
